A study of Rattus norvegicus with 12 samples.

Results

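Immunity-related GTPases are interferon-inducible proteins of the cell's own defence, and 4 of the 5 genes followed here, Igtp, Irgm, Irgm2 and Ifgga2l1, were represented on the arrays by 6 of the 31042 probe sets tested. The members are all probe sets that the platform annotation gives to Igtp, Irgm, Irgm2, Ifgga2l1 or Ifi47. No probe set was annotated to Ifi47, so it has no expression value here. Igtp had 2 probe sets (1397304_at and 1396163_at), Irgm, Irgm2 and Ifgga2l1 had 1 each (1391489_at, 1376151_a_at and 1373992_at), and 1 further probe set (1375796_at) is annotated to Igtpl1, Irgm2 and Igtp together and is called the shared probe set, since its signal cannot be assigned to any of these 3 genes.

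The samples were primary hepatocytes of Wistar rats, freed from the liver with collagenase, purified on a Percoll gradient and kept in culture. On the day after isolation they were cultured for 3 h or 6 h either with rat interferon alpha at 250 U/ml or without it, which gave 4 groups: control 3 h, interferon alpha 3 h, control 6 h and interferon alpha 6 h. Each group held 3 arrays, labelled as biological replicates 1 to 3, and the p-values measure the spread between these samples; how many animals stand behind a replicate was not given in the sources used here. The values are log2 RMA values, a scale on which a step of 1 is a doubling of the probe set's summarised signal, and the number of arrays limits their precision.

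These GTPases bind to the membranes of vacuoles that hold intracellular pathogens and to membranes of the cell itself, and they work together with the autophagy machinery. Irgm, Irgm2 and Igtp belong to the regulatory branch, whose proteins sit on the cell's own membranes and hold the effector GTPases in check, whereas Ifi47 belongs to the effector branch. Their genes are known mainly as targets of interferon gamma, which acts largely through GAS elements, while interferon alpha acts chiefly through a complex that holds Stat2 and Irf9 at interferon-stimulated response elements (ISRE).

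Promoter sequences are shown because 3 of the 4 measured genes carry these elements close together with the same gap between them. They come from RefSeq (assembly GRCr8), in windows of 250 bases before to 50 bases after each annotated start, and all 5 genes had an entry. Both strands were searched for the ISRE core GAAANNGAA and for the GAS form TTCNNNGAA, which reads the same on both strands. The stretches below are printed on the strand of the gene, 5′ to 3′, with both matches in capitals.

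Igtp, chr10:42874908-42874977, plus strand: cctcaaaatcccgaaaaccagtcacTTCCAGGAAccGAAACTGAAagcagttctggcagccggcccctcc
Irgm2, chr10:42889832-42889901, plus strand: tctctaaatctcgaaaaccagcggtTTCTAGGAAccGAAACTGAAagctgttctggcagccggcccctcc
Irgm, chr10:33742579-33742648, minus strand: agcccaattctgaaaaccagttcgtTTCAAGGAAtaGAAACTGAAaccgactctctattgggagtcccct
Ifgga2l1, chr18:56031747-56031817, plus strand: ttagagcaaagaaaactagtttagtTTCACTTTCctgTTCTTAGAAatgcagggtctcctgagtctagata

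In Igtp, Irgm2 and Irgm the GAS match comes first and the ISRE core follows after a gap of 2 bases, and the ISRE core has the same letters, GAAACTGAA, in all 3. Counted from the annotated start, the GAS match began at position -114 in Igtp, -113 in Irgm2 and -45 in Irgm. In Ifgga2l1 the pair as a whole was inverted, with the ISRE core on the opposite strand, where it reads GAAAGTGAA. Read on that strand, the GAS match (TTCTTAGAA on the strand of the gene) again comes first. The ISRE core follows after a gap of 3 bases, so the order is the same and the gap differs. Irgm2 held a second ISRE core, GAAAAAGAA, and Ifgga2l1 held 2 further GAS matches. Ifi47 held 2 GAS matches and no ISRE core in its window.

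Across all 33469 promoter windows, an ISRE core was found in 9.71%, a GAS match in 8.87% and both anywhere in 1.11%. A GAS match followed by an ISRE core after exactly 2 bases, on either strand, was found in 9 windows (0.0269%), 3 of which are those of Igtp, Irgm2 and Irgm. The gap of 2 bases was taken from these 3 genes, so their place among the 9 was fixed in advance. No other gap was counted. The other 6 windows are those of Parp14, Ifgga2l2, Stra8, LOC120102478, LOC120093710 and LOC134480693. These are matches of letters and not measured binding. In the same assembly Igtpl1, Igtp and Irgm2 are direct neighbours on chromosome 10, Irgm and Ifi47 lie on that chromosome with only RGD1559575 between them among protein-coding genes, and Ifgga2l1 lies on chromosome 18 beside Ifgga4l.

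**Figure D1:**
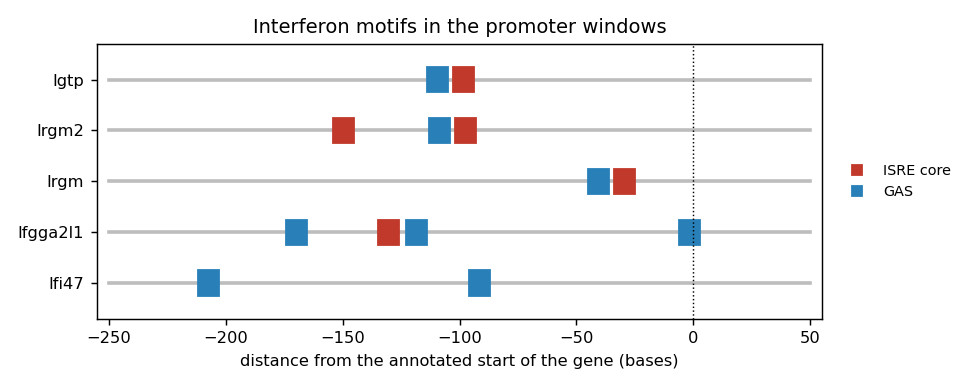
Matches to the ISRE core (red) and to GAS (blue) in the promoter windows of the 5 genes; the horizontal axis is the distance in bases from the annotated start, marked by the dotted line, and each grey line spans the window from 250 bases before to 50 after it. A blue and a red block stand side by side in Igtp, Irgm2, Irgm and Ifgga2l1, and Ifi47 has blue blocks alone.

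The hepatocyte label was checked against marker genes. The 9 measured of 10 hepatocyte markers averaged 12.84 to 13.08 in the 12 arrays, against array medians of 5.16 to 5.21, and 0 of them passed the test for interferon alpha at either time. Of the Kupffer cell or macrophage markers 11 of 14 were measured, and their mean was 6.91 to 7.00 in the 4 arrays of replicate 1 and 5.87 to 6.16 in the other 8, so replicate 1 stood apart; 2 of the 11 lay below the mean lower quartile of the arrays. Replicate 1 stood apart in endothelial markers as well, whose mean (6 of 8 measured) was 4.30 to 4.65 in its 4 arrays and 3.93 to 4.14 in the other 8. Of these 6, 2 lay below the mean lower quartile of the arrays. Lyve1 varied most, with an SD of 0.65 to 1.42 log2 within groups. Stellate markers averaged 4.52 to 4.74 and lymphocyte markers 3.92 to 4.06, above or near the array lower quartiles of 3.84 to 3.93. Of the 3 cholangiocyte markers measured, Krt7 (3.93) and Krt19 (3.47) lay at or below those quartiles and Epcam was at 11.28, as means over the 12 arrays. In limma 0 markers of any of these cell types passed at either time. With 0.387% of all probe sets called higher at 6 h and 0.00644% at 3 h, 0 is near the background. It says nothing particular about the hepatocyte markers or the others. In bulk RNA, fewer cells of a type and less RNA per cell cannot be told apart.

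At 6 h, interferon alpha raised all 6 probe sets of these GTPases, by 5.85-fold to 23.0-fold. Every treated array lay above every control array for each of them. In limma, with Benjamini-Hochberg adjustment over all probe sets, 6 of 6 rose against a background of 0.387% of all probe sets called higher, and 6 of 6 did not overlap between groups against 4.29% of all probe sets. With the replicate number as a block, 6 of 6 rose against 1.06%. The median change of the 6 was 3.03 log2, while the median over all probe sets was -0.02.

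Igtp encodes a regulatory GTPase found on the endoplasmic reticulum and on lipid droplets. On 1397304_at its control arrays at 6 h read 8.78, 7.88 and 8.57 for replicates 1 to 3, and its treated arrays read 10.96, 11.51 and 11.44. The group means were 8.41 ± 0.47 and 11.30 ± 0.29 log2 (SD, n = 3 each). The highest control array thus lay more than 2 log2 units below the lowest treated one, and Igtp rose 7.43-fold (log2 change 2.89 ± 0.39 SE; limma adjusted p = 0.00709). The other Igtp probe set, 1396163_at, read 7.64, 6.68 and 7.10 in controls and 9.97, 10.58 and 10.34 in treated arrays. It rose 8.94-fold (3.16 ± 0.39 SE; limma adjusted p = 0.00476), so both probe sets of Igtp passed. In both, replicate 2 had the lowest control and the highest treated value.

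Irgm, the regulatory GTPase best known for its link to autophagy and to resistance against intracellular bacteria, read 8.51, 8.24 and 8.03 in controls and 10.75, 11.27 and 11.31 in treated arrays at 6 h. Its group means were 8.26 ± 0.24 and 11.11 ± 0.31 log2 (SD, n = 3 each). It rose 7.20-fold (2.85 ± 0.26 SE; limma adjusted p = 0.00243), and its rank by p among all probe sets was 3. Irgm2, a regulatory GTPase of the Golgi, read 10.08, 9.63 and 9.11 in controls and 11.97, 12.40 and 12.09 in treated arrays. Its means were 9.61 ± 0.49 and 12.15 ± 0.22 log2 (SD, n = 3 each). It rose 5.85-fold (2.55 ± 0.26 SE; limma adjusted p = 0.00265). Neither gene had a treated array near the control range.

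Ifgga2l1, named as one of the interferon gamma-inducible GTPase genes, read 9.27, 8.89 and 7.76 in controls and 12.40, 12.95 and 12.32 in treated arrays at 6 h. The control group (8.64 ± 0.79 log2, SD, n = 3) was more spread out than the treated one (12.56 ± 0.34, n = 3). It rose 15.1-fold (3.92 ± 0.52 SE; limma adjusted p = 0.00709). The shared probe set read 4.76, 4.94 and 4.16 in controls and 9.08, 10.14 and 8.21 in treated arrays. Its controls lay below the array medians, and it rose 23.0-fold (4.52 ± 0.58 SE; limma adjusted p = 0.00536). Its treated arrays had an SD of 0.97 log2, and in all 3 replicates the treated value was more than 4 log2 units above the control of the same number.

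**Figure D2:**
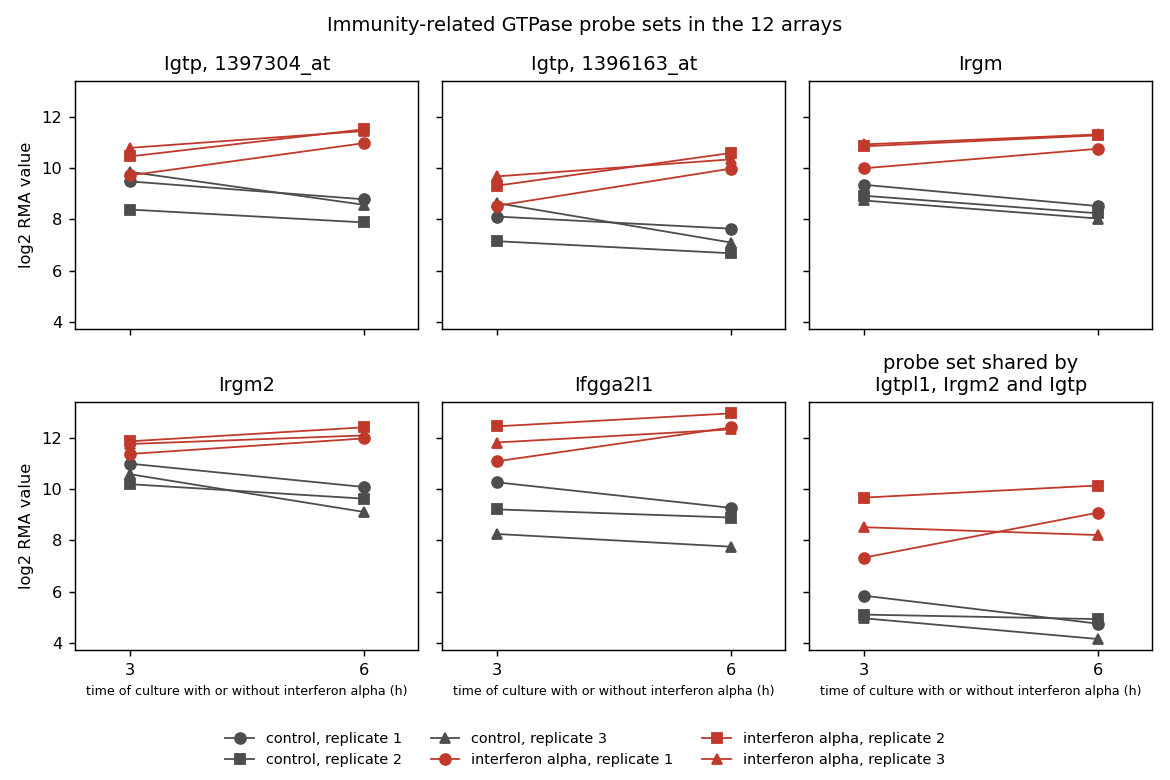
Log2 RMA value (vertical axis) of each of the 6 probe sets in all 12 arrays by time of culture (horizontal axis, h); grey marks controls, red marks interferon alpha, the marker shape gives the replicate number and lines join the same number across times. At 6 h the red points stand above all grey points in every panel; at 3 h they overlap in both Igtp panels.

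The result at 6 h depended on the arrays in part. Without replicate 2 of the interferon alpha 6 h group, Igtp on 1397304_at and Ifgga2l1 each had a limma adjusted p of 0.0539, which left 4 of 6. With a replicate number left out of all groups, 2 arrays a group remain. The count was then 3 without number 1 and 0 without number 2 or number 3, while the changes stayed positive. With the replicate block in such fits the counts were 6, 6 and 5. The share of all probe sets called was not counted in any of these fits. A lower count is therefore not particular to these members.

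At 3 h all 6 probe sets were higher with interferon alpha in group mean, by 2.11-fold to 9.15-fold, and 0 of 6 passed in limma against a background of 0.00644% called higher (2 probe sets). All 6 had an unadjusted p under 0.05. The treated and control arrays did not overlap for 4 of 6, against 4.53% of all probe sets. With the replicate block, 1 of 6 passed, the shared probe set (adjusted p = 0.0375), against 0.0934% of all probe sets, and with the block taken within each time 0 of 6 did. The median change of the 6 was 1.39 log2, against -0.01 over all probe sets.

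Igtp at 3 h read 9.48, 8.38 and 9.85 in controls and 9.71, 10.45 and 10.78 in treated arrays on 1397304_at, and the lowest treated array lay below the highest control. The change was 1.08 ± 0.39 log2 (SE; limma adjusted p = 1). On 1396163_at the arrays read 8.11, 7.15 and 8.63 in controls and 8.53, 9.31 and 9.67 in treated samples, with the same overlap and a change of 1.21 ± 0.39 log2 (SE). Irgm read 9.35, 8.92 and 8.73 in controls and 9.99, 10.84 and 10.92 in treated arrays, with no overlap. Its change was 1.58 ± 0.26 log2 (SE; limma adjusted p = 0.162, and 0.0521 with the block).

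Irgm2 at 3 h read 10.99, 10.19 and 10.58 in controls and 11.37, 11.86 and 11.76 in treated arrays, a change of 1.07 ± 0.26 log2 (SE; limma adjusted p = 0.874). Ifgga2l1 read 10.26, 9.21 and 8.25 in controls and 11.08, 12.44 and 11.81 in treated arrays. Its change was 2.54 ± 0.52 log2 (SE; limma adjusted p = 0.48, and 0.0584 with the block). The shared probe set read 5.85, 5.11 and 4.97 in controls and 7.33, 9.67 and 8.51 in treated arrays, a change of 3.19 ± 0.58 log2 (SE; limma adjusted p = 0.28). In these 3 probe sets the groups did not overlap, and replicate 1 had the lowest treated value in each.

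Replicate 1 differed from the others in the size of the response. Within a replicate number, the treated array exceeded the control in 18 of 18 pairs of probe set and replicate at 3 h, by 0.23 to 4.56 log2, and in 18 of 18 at 6 h, by 1.89 to 5.20 log2. Such pairs, here and below, come from 6 probe sets read in the same 3 replicates, so they are not independent. The share of such pairs over all probe sets was not counted. Replicate 1 gave the smallest difference for 6 of 6 probe sets at 3 h and for 5 of 6 at 6 h. For Ifgga2l1 at 3 h the differences were 0.82, 3.23 and 3.56 log2 for replicates 1 to 3, and for Irgm they were 0.64, 1.92 and 2.18. Replicate 1 also had the highest control value for 4 of 6 probe sets at 3 h and 5 of 6 at 6 h, and it is the replicate whose macrophage and endothelial marker means stood apart, at 6.91 to 7.00 and 4.30 to 4.65; their part in the result was not tested.

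Without replicate 1 in any group, the change of Irgm at 3 h was 2.05 log2 and passed (limma adjusted p = 0.00572), that of Ifgga2l1 was 3.40 log2 (0.236) and that of the shared probe set 4.05 log2 (0.43). Leaving out the replicate 1 array of the interferon alpha 3 h group alone gave 2 of 6, Irgm (adjusted p = 0.0208) and the shared probe set (0.0495). With the block and no replicate 1, 4 of 6 passed at 3 h, an alternative chosen after seeing the data. The share of all probe sets called was not counted in these fits, so their counts have no background here.

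**Figure D3:**
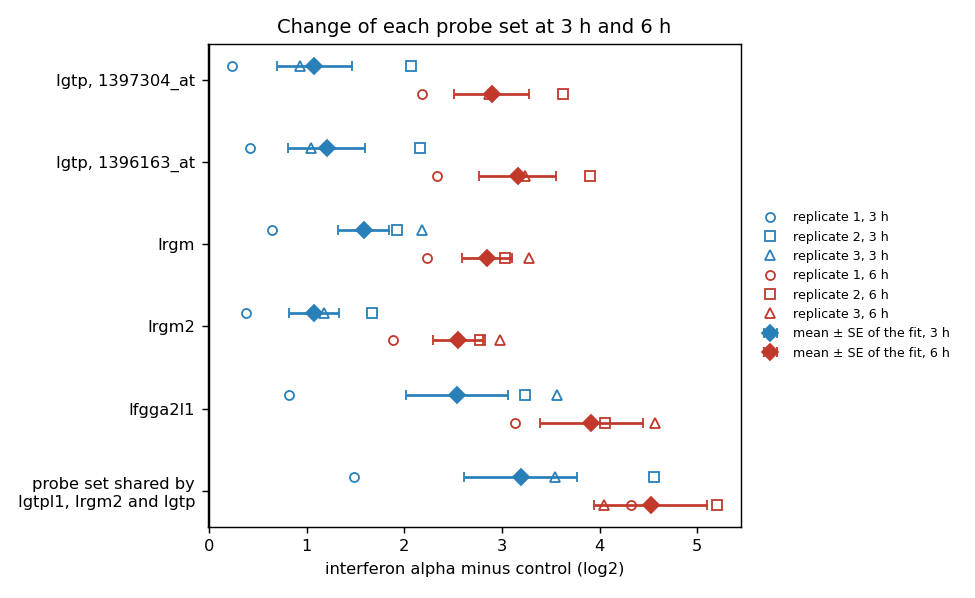
Interferon alpha minus control (horizontal axis, log2) for each of the 6 probe sets (rows) at 3 h (blue) and 6 h (red); diamonds with bars are the group difference with the SE of the fit, and open symbols are the differences within replicates 1, 2 and 3. All symbols lie right of 0, from 0.23 to 5.20, and the circle of replicate 1 is leftmost in every row at 3 h.

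The difference between treated and control arrays was larger at 6 h than at 3 h in 18 of 18 pairs of probe set and replicate. The difference between the effects at the 2 times was 1.27 to 1.95 log2 by probe set, 0 of 6 passed in limma (adjusted p = 1 for all), 4 of 6 had an unadjusted p under 0.05, and 0% of all probe sets were called higher. For Igtp on 1397304_at it was 1.82 log2 (95% interval 0.61 to 3.02), for Irgm 1.27 (0.45 to 2.08) and for Irgm2 1.47 (0.67 to 2.28). For Ifgga2l1 it was 1.38 log2 with an interval of -0.26 to 3.02, and for the shared probe set 1.33 with -0.47 to 3.13, both of which hold 0. With the replicate block the interval was 0.09 to 2.66 for Ifgga2l1, which leaves out 0, and -0.06 to 2.72 for the shared probe set; 5 of 6 then had an unadjusted p under 0.05 and 0 of 6 passed after adjustment. These intervals are not adjusted for the number of probe sets tested. On the log2 scale the 3 h effect was 37.2% of the 6 h effect for Igtp on that probe set, 42.1% for Irgm2, 55.6% for Irgm, 64.8% for Ifgga2l1 and 70.6% for the shared probe set.

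A part of this difference lay in the controls. Their values were lower at 6 h than at 3 h in 18 of 18 pairs of probe set and replicate, by 0.18 to 1.54 log2 within a replicate number. These pairs again rest on 3 replicates and are not 18 independent observations. The difference of control means was -0.83 log2 for Igtp on either probe set, -0.74 for Irgm, -0.98 for Irgm2, -0.60 for Ifgga2l1 and -0.69 for the shared probe set, a median of -0.78 against 0.01 over all probe sets. In limma 0 of 6 passed (adjusted p from 0.194 to 0.788; 2 of 6 at an unadjusted p under 0.05), against 0.0999% of all probe sets called lower. With the block, Irgm2 fell (adjusted p = 0.0327), 1 of 6 against 4.82%, and the groups did not overlap for 3 of 6 (Irgm, Irgm2 and the shared probe set) against 6.30%.

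In the treated arrays the values at 6 h exceeded those at 3 h in 17 of 18 pairs, and the exception was the shared probe set in replicate 3, where 8.51 at 3 h stood against 8.21 at 6 h. The differences of treated means were 0.99 log2 for Igtp on 1397304_at, 1.13 on 1396163_at, 0.53 for Irgm, 0.49 for Irgm2, 0.78 for Ifgga2l1 and 0.64 for the shared probe set. In limma 0 of 6 passed against a background of 0.232% called higher, and 2 of 6 had an unadjusted p under 0.05. With the block 0 of 6 passed against 4.78%, and 3 of 6 did not overlap (both Igtp probe sets and Irgm2) against 7.73%. The controls' share of the difference between times was 42.3% to 66.5% by probe set, highest in Irgm2. These shares are ratios of estimates and have no interval. Without the block, neither the control change nor the difference between times passed for any of the 6. For Ifgga2l1 and the shared probe set the interval of the latter held 0 in that fit, so their shares are poorly determined.

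The order of the group means was therefore the same for all 6 probe sets: control 6 h, control 3 h, interferon alpha 3 h, interferon alpha 6 h, from low to high. Neighbours in that order did not differ past the limma threshold for any of the 6 without the block, though the ends of the order did. The comparisons share their control or treated arrays, so they are not independent.

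**Figure D4:**
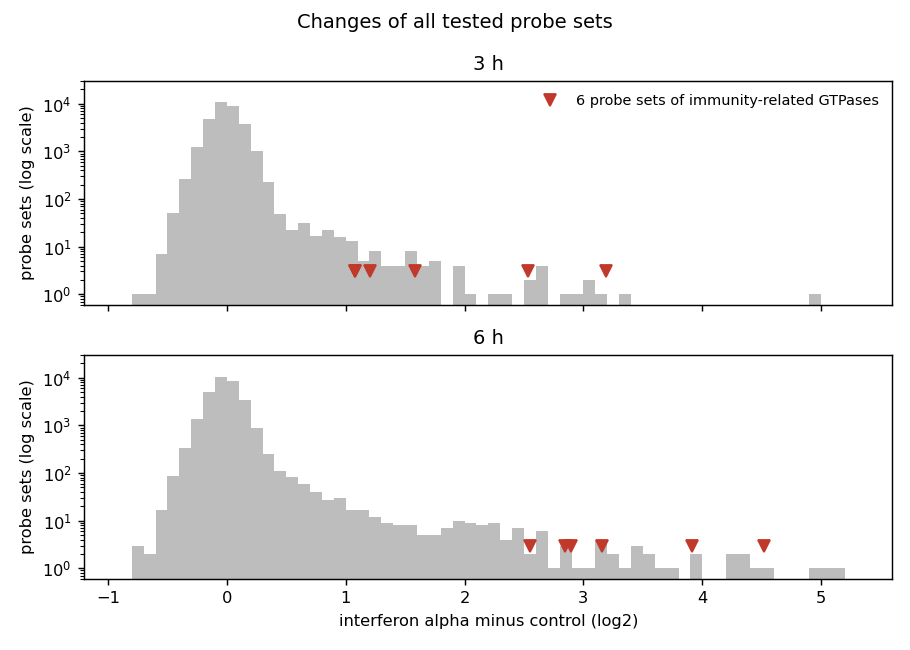
Number of probe sets (vertical axis, log scale) by interferon alpha minus control (horizontal axis, log2, in steps of 0.1) over all 31042 probe sets at 3 h and 6 h; red triangles mark the 6 probe sets of the GTPases at an arbitrary height. The triangles lie from 1.07 to 3.19 at 3 h and from 2.55 to 4.52 at 6 h, right of the bulk around 0.

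The genes whose profiles over the 12 arrays came nearest to each GTPase were chosen by the root mean square distance between profiles centred on their means, among 13982 genes. For Igtp they were Cxcl11, a chemokine for T cells, at 0.337 log2, Oasl, an antiviral oligoadenylate synthetase-like protein, at 0.412, and Irgm2 at 0.424, where the median gene lay at 1.20. For Irgm they were Mitd1 at 0.274, Ifi44 at 0.278 and Irgm2 at 0.307, and for Irgm2 Apol9a at 0.209, Usp18 at 0.296 and Irgm at 0.307. For Ifgga2l1 they were Ifit3 at 0.512, Irf7 at 0.534 and Ifit2 at 0.546, and its distance to Irgm was 0.668, to Irgm2 0.841 and to Igtp 0.96. Irgm and Irgm2 were each among the 3 nearest of the other, whereas no other member was among the 3 nearest of Ifgga2l1. By distance from Ifgga2l1, Irgm ranked 8, Irgm2 21 and Igtp 31 among the 13982 genes. In the other direction Ifgga2l1 ranked lower, at 51 from Irgm, 144 from Igtp and 148 from Irgm2. Genes with LOC or RGD symbols, RGD1309362 among them, were not candidates. These distances describe 12 arrays that share the treatment and carry no test.

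Of 15 names of other immunity-related GTPase genes, 2 had a probe set with 1 gene symbol. RGD1309362, which RefSeq lists with the synonym Ifgga1, read 6.05, 6.09 and 4.80 in controls and 10.33, 11.61 and 10.08 in treated arrays at 6 h. It rose by 5.02 ± 0.70 log2 (SE; limma adjusted p = 0.00927), a larger change than that of any of the 6 members, though the difference from them was not tested. At 3 h its change was 3.03 log2 (limma adjusted p = 0.739, 0.0499 with the block and 0.159 with the block within each time), and within replicates it was 1.10, 4.05 and 3.93, again smallest in replicate 1. Its call at 6 h ended without replicate 3 of the control 6 h group (adjusted p = 0.0564) or replicate 2 of the interferon alpha 6 h group (0.0602). Irgq, a divergent member of the family, differed by -0.13 ± 0.16 log2 at 6 h (SE; limma adjusted p = 1), and in these windows neither motif was found for it.

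Among guanylate-binding proteins and Mx proteins, larger interferon-inducible GTPases, 5 of 11 listed genes were measured, 2 rose at 6 h, against 0.387% of all probe sets, and 5 of 5 did with the block, against 1.06%. At 3 h 0 passed in either fit, where 0.00644% and 0.0934% of all probe sets were called higher, so that 0 of 5 is near the background. The median change of the 5 at 6 h was 3.43 log2. Mx1, an antiviral GTPase, rose by 4.33 ± 0.51 log2 (SE; limma adjusted p = 0.00365), and Mx2 by 2.23 ± 0.37 (0.0316). With the probe sets of each gene averaged, Mx2 differed by 1.71 log2 and did not pass (adjusted p = 1). Gbp2 read 6.49, 6.05 and 4.05 in controls and 9.17, 10.37 and 7.36 in treated arrays at 6 h. Its arrays of replicate 3 were the lowest in both groups, and its change of 3.43 ± 1.06 log2 (SE) had a limma adjusted p of 0.66, and of 0.000281 with the block. Gbp7 (3.60 log2; 0.128, and 0.000774 with the block) and Gbp4 (2.84 log2; 1.00, and 0.00149 with the block) passed with the block alone as well. At 3 h the change of Gbp4 was 1.22 log2, and it was -7.6e-05 without replicate 2 of the interferon alpha 3 h group.

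Of 15 listed receptors, kinases and factors upstream of these genes 14 were measured, and 3 rose at 6 h against 0.387% of all probe sets, or 4 with the block against 1.06%. The median change of the 14 was 0.08 log2. Stat2, which acts with Irf9 at the ISRE, rose by 1.52 ± 0.21 log2 (SE; limma adjusted p = 0.00981), Irf9, its DNA-binding partner, by 1.20 ± 0.19 (0.0209), and Usp18, which damps signalling from the receptor, by 2.21 ± 0.35 (0.0199). Irf1, a factor that also binds such elements, differed by 2.24 log2 at 3 h and 2.22 at 6 h, with limma adjusted p of 0.322 and 0.0608, and of 0.0218 and 0.00203 with the block. With the block taken within each time its adjusted p at 3 h was 0.0547. The receptor genes Ifnar1, Ifnar2, Ifngr1 and Ifngr2 differed by -0.12, -0.11, -0.01 and -0.03 log2 at 6 h, and none of them passed. Ifng, the gene of interferon gamma itself, read between 2.95 and 3.18 in group means, below the lower quartile of every array. Mx2, Stat2, Irf9 and Usp18 did not pass when the 6 h groups were fitted alone (adjusted p = 0.0782, 0.0948, 0.188 and 0.0971) or without replicate 2 of the control 6 h group (0.168, 0.0632, 0.0848 and 0.113).

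Autophagy genes, with which these GTPases work, did not pass at either time: 0 of 9 measured genes of the ATG conjugation machinery and 0 of 7 of initiation and cargo adaptors, in limma with or without the block. With 0.387% of all probe sets called higher at 6 h and 0.00644% at 3 h (1.06% and 0.0934% with the block), 0 of 16 is near the background and says nothing particular about these genes. Their median changes at 6 h were -0.02 and 0.01 log2, as against -0.02 over all probe sets. The brightest of them were Gabarap and Gabarapl1, which attach to autophagosome membranes, and the cargo adaptors Sqstm1 and Tax1bp1. They differed by -0.06 ± 0.09, -0.13 ± 0.08, 0.05 ± 0.16 and 0.05 ± 0.06 log2 at 6 h (SE).

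**Figure D5:**
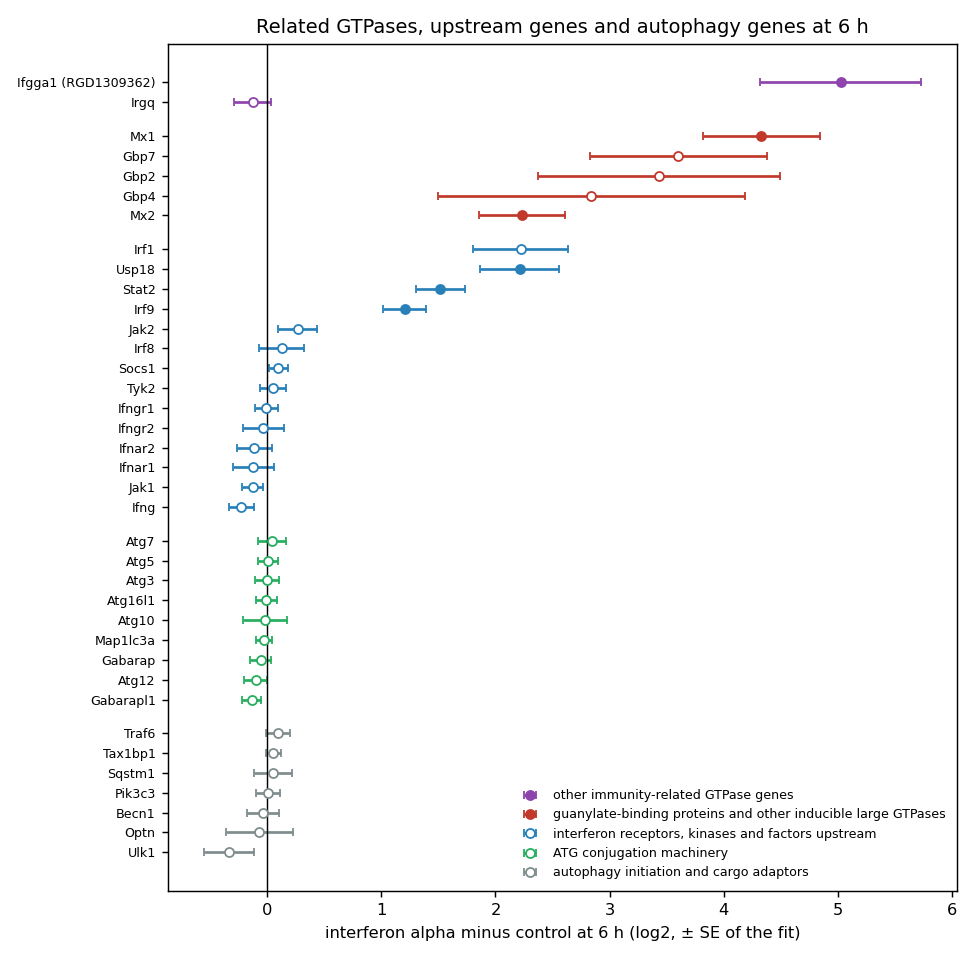
Interferon alpha minus control at 6 h (horizontal axis, log2, with the SE of the fit) for the measured genes of 5 lists (rows, coloured by list); filled points passed in limma at an adjusted p under 0.05. Ifgga1, Mx1, Mx2, Usp18, Stat2 and Irf9 are filled, and the autophagy genes lie around 0.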

How the data were processed

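The deposited files hold RMA values on the log2 scale, which the submitters' processing notes link to affy and R 2.10.0, from Affymetrix arrays of biotinylated cRNA prepared from 5 µg total RNA, per the labels' protocols. Because RMA brings all arrays to 1 distribution of probe intensities, it hides a change common to most transcripts. Which probe set definition was used is not stated in those notes. Of 31099 rows, 57 controls were left out. Names came from the platform annotation: 20826 probe sets had 1 symbol (14217 genes), 436 several and 9780 none listed; 20758 matched RefSeq genes of GRCr8 by Entrez identifier, and 0 symbols changed. Promoter sequences are RefSeq's, from GRCr8.

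Groups and replicate numbers came from the sample titles. One fit over 12 arrays and 4 groups (8 residual degrees of freedom) was made in R 4.3.3 with limma 3.58.1 (lmFit, eBayes), with two-sided p-values adjusted by Benjamini-Hochberg over 31042 probe sets within each of 5 comparisons and calls at an adjusted p under 0.05. The fit was tested on simulated data whose arrays were drawn independently. That test therefore does not cover the correlation between same-numbered arrays given below. No pair of arrays held identical values, and correlations between arrays ran from 0.979 to 0.997.

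Replicate numbers, shared by the groups in the labels, pair the arrays. Deviations from group means correlated at 0.651 to 0.829 between same-numbered arrays of 1 time (6 pairs), 0.479 to 0.736 across times (12 pairs) and -0.562 to -0.0747 between different numbers (36 pairs). The block is the replicate number across both times unless said otherwise.

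Members and lists were chosen with earlier results of these data known. Named genes are all member probe sets with 1 symbol, the shared probe set, from each list up to 4 called genes with the largest change or else the 2 brightest, and the 3 genes nearest to each member in profile. Gbp2, Gbp4, Gbp7, Irf1, Irgq, Ifng and the receptors were chosen after their values were seen. A gene is represented by its brightest probe set. Alternatives were the replicate block, a mean-variance trend, array weights, median centring, a filter at the lower quartile, only the groups compared, 1 value per gene and each array or replicate number left out.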

Additional observations from a re-analysis of the deposited data

How the results depend on the processing

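All 674 pairs of a member result and an alternative kept the direction of the main value. For many of these pairs the direction could not change. Over all arrays, the replicate block, the trend, the filter and the fit of only the groups compared leave the estimated change as it is. Leaving out an array outside the groups compared also leaves it as it is. The replicate block across both times gave 6 of 6 calls at 6 h, 1 at 3 h (0 without it) and 1 in the controls between times (0 without it); the pairing changed no other count of member calls. The block with replicate 1 left out, added after seeing the data, gave 4 at 3 h. With arrays or replicate numbers left out the counts ran from 0 to 6 at 6 h and from 0 to 2 at 3 h. A replicate number left out leaves 2 arrays a group and 4 residual degrees of freedom. The share of all probe sets called was not counted in fits with arrays left out, with or without the block. Genes with changes near 0 turned sign when arrays were left out: at 6 h Irgq (-0.269 to 0.0509 log2), Gabarap (-0.117 to 0.0139) and Sqstm1 (-0.0722 to 0.182), and at 3 h Gabarap (-0.035 to 0.0449), Gabarapl1 (-0.0337 to 0.0405) and Sqstm1 (-0.0634 to 0.145). Gbp4 at 3 h, 1.22 log2 over all arrays, ran from -7.6e-05 (without replicate 2 of the interferon alpha 3 h group) to 2.28. Gabarap at 3 h, 0.00625 log2, was also -0.00984 with median centring and -0.0455 with 1 value per gene. The cause was not tested.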
